A study of Homo sapiens with 15 samples.

Results

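MDA-MB-231 spheroids that received only the vehicle, 0.1% DMSO, are described here as a baseline. MDA-MB-231 is an established human line of triple-negative breast cancer, a class that lacks the estrogen and progesterone receptors and amplification of the HER2 receptor. The samples were chosen by their label alone, and 3 of the 15 libraries of the series carried it. The other 12 libraries were treated with ZJ-101, a simplified synthetic relative of the sponge compound superstolide A, at 0.5, 5, 50 or 500 nM, and no contrast with them is given. All 15 libraries shared the cell line and 72 h of spheroid formation in low-attachment 96-well plates, followed by 24 h with vehicle or compound.

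Each DMSO library came from the pooled wells of 1 plate, loose cells included, and the labels call each plate a biological replicate. The spread therefore measures separate plates of a single line, with their library preparation and sequencing, and not separate tumours. RNA was poly(A)-selected, so transcripts without a poly(A) tail are under-represented. In pooled material, fewer cells of a kind and less RNA per cell cannot be told apart.

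When attachment to plastic is prevented, cancer cells gather into compact aggregates held by contacts between cells and by matrix that they secrete themselves. Cadherins join neighbouring cells and are anchored to actin by catenins, while integrins bind matrix proteins such as fibronectin, laminins and collagens. Oxygen and nutrients reach the core of an aggregate by diffusion, and cells with little oxygen stabilise hypoxia-inducible factors, which raise glucose uptake, glycolysis and lactate export. Many of these proteins belong to gene families whose members differ between tissues, and which members a line uses cannot be read from the family name.

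The 3 plates held 8220619, 9782428 and 8856807 reads in genes. A normalised read is a read count divided by the size factor of its library, and values are given for replicates 1, 2 and 3 in that order, then as mean ± SD with n = 3 plates. Of 59608 gene symbols, 15250 were present, defined as a mean of at least 10 normalised reads, 10789 had only a trace of reads below that mean, and 33569 had no read in any plate. With no read in the 3 plates together, the upper limit of 3 reads corresponds to a mean of 0.993 normalised reads, or 0.112 CPM (counts scaled to a library of 1000000), a limit that covers counting error only. Among 19351 symbols matched to protein-coding genes, 12082 were present, 3104 had a trace and 4165 had no read. Protein-coding genes of the nucleus took 90.7% ± 0.166 of the reads and mitochondrial messenger RNAs 2.83% ± 0.141.

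Marker genes fitted the label in part. All 15 markers of mesenchymal breast lines were present, led per kilobase by LGALS1, FN1 and VIM, although the matrix protein gene SPARC reached only 16.3, 15.4 and 12.1 normalised reads. Of 20 luminal markers, 16 were present, among them KRT19, KRT8, KRT18 and MUC1, whereas ESR1 (estrogen receptor), PGR (progesterone receptor) and FOXA1 had no read. Fibroblast markers were present in 5 of 15 cases and summed to between 1143 and 1277 normalised reads per plate, with DCN, POSTN and THY1 at no read. Only 3 of 15 blood markers were present, with the haemoglobin genes HBA1, HBA2 and HBB at no read and PTPRC and CD68 uncertain through copied or shared exons, and only 3 of 10 endothelial markers were, ESAM at 485 ± 11.2, PECAM1 at 176 ± 35.0 and KDR below them. Of 6 adipocyte markers, PLIN1 alone was present, and ADIPOQ, FABP4 and LEP had no read.

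A small number of genes held a large share of the reads. The 10 most abundant genes held 5.71% ± 0.0238, the 100 most abundant 18.8% ± 0.109 and the 1000 most abundant 48.7% ± 0.214. Altogether 1072 genes held 50% of the reads and 6473 genes held 90%. The 65 genes that reached 10000 took 15.5% of all reads, the 1881 genes between 1000 and 10000 took 46.8%, and the 5223 genes between 10 and 100 took 2.47%.

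EEF1A1, the elongation factor that delivers aminoacyl-tRNA to the ribosome, had the most reads, 85261, 84643 and 84066. MT-CO1, a mitochondrially encoded subunit of cytochrome oxidase, followed with 80076, 84385 and 87428. The plates overlapped between these 2 genes, so their order in reads is not settled. MT-RNR2, the large mitochondrial ribosomal RNA, came next at 74838 ± 3621. FN1, the matrix glycoprotein fibronectin, stood well apart from these and from everything below it, with 57278, 54010 and 55634 normalised reads. FN1 lies on chromosome 2 at chr2:215360440-215436073 on hg38.

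Below FN1 came a closely spaced run of glycolytic, iron storage and cytoskeletal genes. ENO1 (enolase) had 38160 ± 1365 normalised reads, PKM (pyruvate kinase) 35556 ± 973, FTH1 (ferritin heavy chain) 35329 ± 1021 and ACTB (beta-actin) 35314 ± 608. The ranges of PKM, FTH1 and ACTB over the plates overlapped. FTL (ferritin light chain), TMSB4X (an actin monomer-binding thymosin), MT-CO2 and ACTG1 (gamma-actin) lay between 31483 and 32329, with overlapping ranges as well. GAPDH (a glycolytic dehydrogenase) had 27292 ± 854 and MT-CO3 25642 ± 1819. PSAP (a precursor of lysosomal activators), FLNA (filamin), MT-ND4 and PLEC (plectin) were also among the leading 20, at means between 21235 and 25070.

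BEST1, a channel gene known from the retinal pigment epithelium, also stood among the 20, with 26783, 25418 and 26502. It neighbours FTH1, and 14.6% of BEST1 exon bases, like 63.2% of FTH1 exon bases, are overlapped by a gene on the opposite strand. The strand setting of the counting is not given in the sources used here, so reads of such partners cannot be told apart, and both levels are uncertain.

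**Figure D1:**
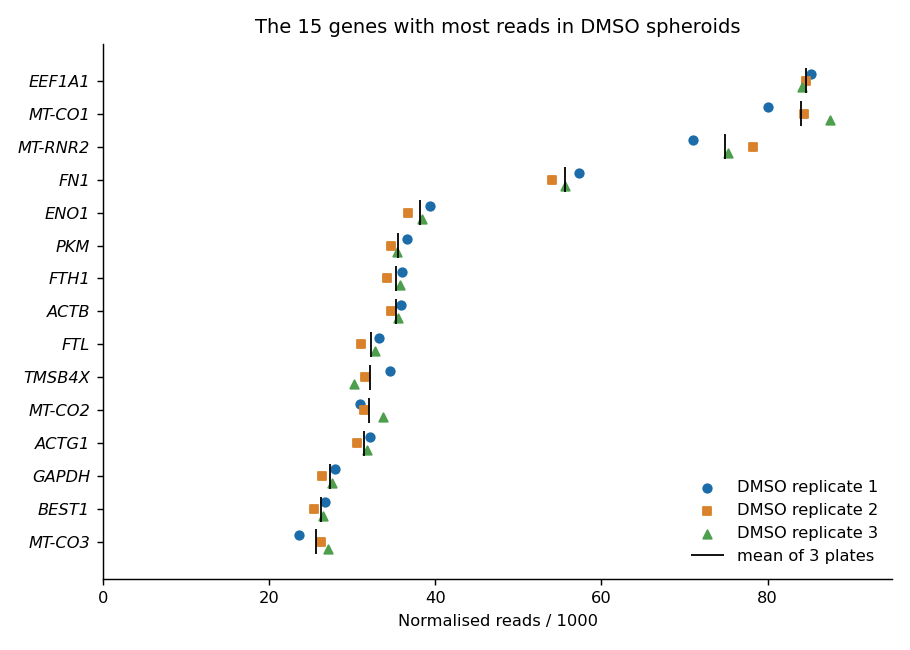
Normalised reads, in units of 1000, of the 15 genes with most reads; each row is a gene, markers are the 3 DMSO plates and the bar is their mean. EEF1A1 and MT-CO1 overlap at the top, MT-RNR2 follows, FN1 stands alone between 54010 and 57278, and the remaining genes lie closely spaced down to MT-CO3.

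Levels of different genes are compared per kilobase (kb) of exon, because long transcripts yield more reads. Ranges given with ratios cover the plates only, and the choice of exon length moved many ratios outside them. On that scale mitochondrial transcripts led, with MT-CO1 at 54451 ± 2396 normalised reads per kb, MT-RNR2 at 48004 ± 2322 and MT-CO2 at 46886 ± 2166. FTL was the highest nuclear gene at 37117 ± 1296, followed by S100A6 (a small calcium-binding protein) at 20710 ± 948, TMSB4X at 18853 ± 1275, FTH1 at 17629 ± 509 and TMSB10 at 17237 ± 180. Of the 20 leading genes, 13 were encoded by the mitochondrial genome. MIR1282 also entered the 20, at 17562 ± 1003, but this 0.101 kb gene is wholly overlapped by another gene on the opposite strand, and its value cannot be assigned to the microRNA. When the longest transcript replaced the union of exons, 16 of the 20 remained, and MT-CYB, MT-ND4L, MT-ND6 and MT-RNR1 were the ones that left.

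Across 48 lists of related genes with 894 distinct members, 581 members were present, 179 had a trace and 134 had no read. Presence ran from every member of the B4GALT, hypoxia, mitochondrial messenger RNA and RAS to MAP kinase lists to 3 of 16 mucins and 5 of 23 cadherins. Some near-absent values are uncertain, because 20 of the 134 members with no read, but only 5 of the 581 present, have a second copy of at least 50% of their exon sequence on an alternate contig of the reference. Over all protein-coding genes, 18.7% of those with such a copy were present, against 64.4% of the others. Whether the copies took the reads was not tested.

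**Figure D2:**
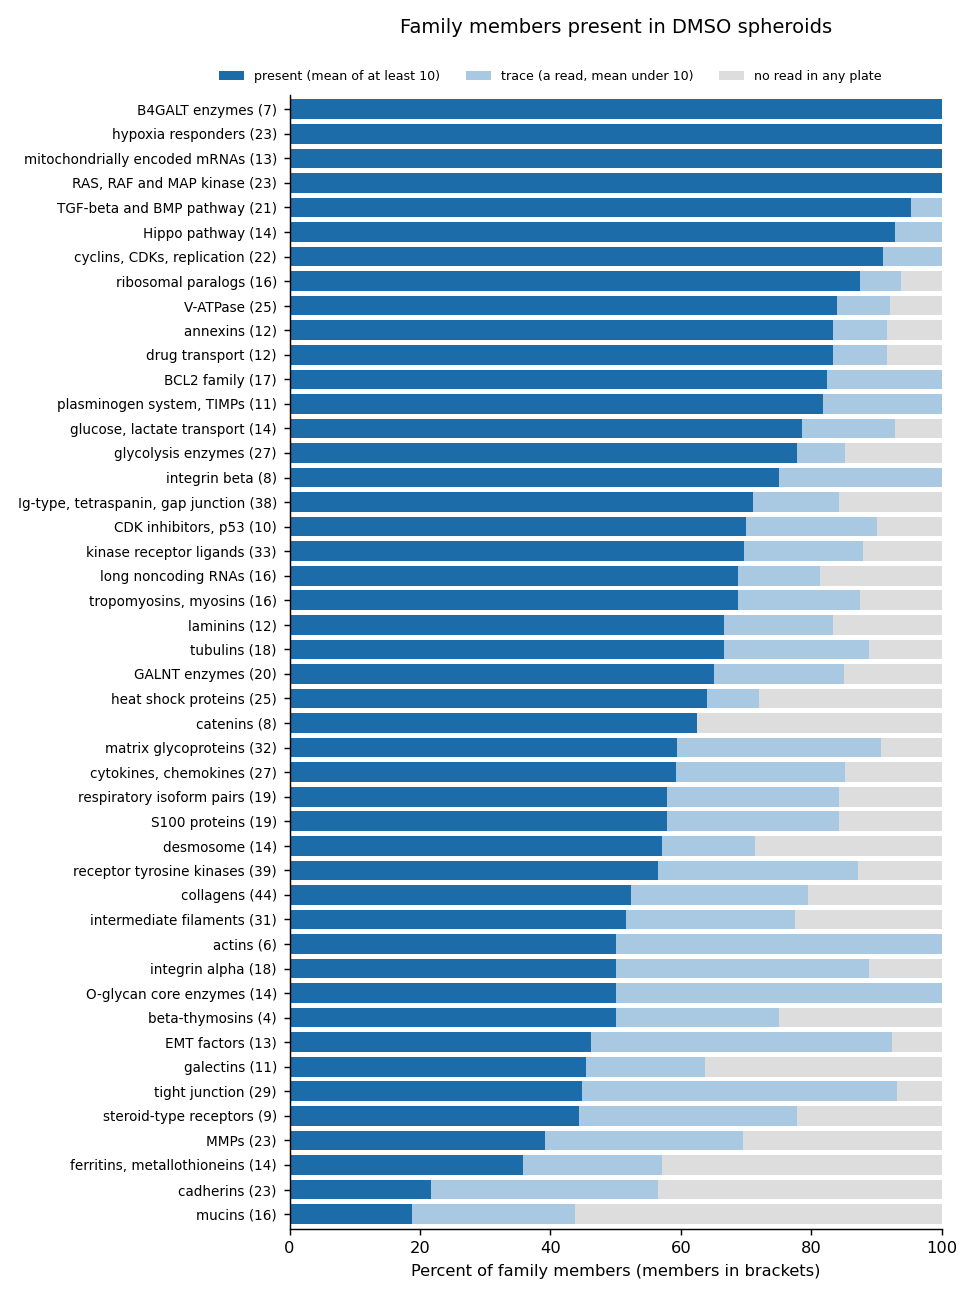
Percent of the members of each gene family (number of members in brackets) that were present, had a trace or had no read in the 3 DMSO plates. Lists at the top are fully present, while mucins (3 of 16) and cadherins (5 of 23) stand at the bottom.

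Intermediate filaments, the tissue-restricted part of the cytoskeleton, showed mesenchymal and simple epithelial members side by side. VIM (vimentin, typical of mesenchymal cells) had 16990, 16256 and 16868 normalised reads. The simple epithelial keratins KRT8, with 11355, 10444 and 10751, and KRT19, with 6183, 5518 and 5571, were also abundant. KRT18, the usual filament partner of KRT8, had 4159 ± 88.5, and KRT7 had 3574 ± 117. Per kb, VIM reached 3227 ± 76.0 and KRT8 1577 ± 67.3. VIM was 2.05 times KRT8 (range 1.99 to 2.09 over the plates, and 1.65 by longest transcript).

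Several keratins of basal and squamous cells were at the edge of detection, but not all. KRT10 of squamous cells had 535, 505 and 449 normalised reads and basal KRT15 29.4, 34.3 and 39.2. KRT14 had 5.44, 0.903 and 7.03 normalised reads and KRT17 13.1, 9.94 and 5.02, and KRT5 was seen in replicate 3 only. DES (the muscle filament desmin), PRPH, KRT1, KRT4, KRT6B, KRT20 and KRT23 had no read, the last pair with 100% of their sampled sequence on alternate contigs. Of the nuclear lamins, LMNA had 11332 ± 473 normalised reads, LMNB2 2354 and LMNB1 495 on average.

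Actins split into the non-muscle pair and the muscle isoforms. Per kb, ACTB was at 8017 ± 138 and ACTG1 at 7770 ± 199, a ratio of 1.03 with plates between 1.03 and 1.04, and 1.09 when the longest transcript was used. Smooth-muscle ACTA2 had 28.3, 28.0 and 14.1 normalised reads, ACTA1 (skeletal muscle) 16.3, 0 and 2.01, and cardiac ACTC1 and enteric ACTG2 a single read each. The non-muscle myosin heavy chain MYH9 averaged 15989 ± 628, against 612 ± 18.6 for its paralog MYH10, while smooth-muscle MYH11 and cardiac MYL2 had no read, MYH11 with a full second copy.

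Among 18 tubulins, 12 were present. TUBB4B had 5618, 5251 and 5661 normalised reads, or 2705 ± 111 per kb, above TUBA1B at 2124 ± 45.1 and TUBA1C at 973 ± 15.9 per kb. TUBB, widely expressed in dividing cells, had 3.27, 0 and 0, and 100% of its sampled exon sequence lies also on alternate contigs, so its value is no evidence of absence. TUBA3C and TUBB4A had no read.

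Calcium-binding S100 proteins, annexins, galectins and thymosins showed a few members at very high levels. S100A6 had 20930, 19114 and 20285 normalised reads, 3.27 times S100A4 per kb (range 3.19 to 3.42), and S100A11, S100A10 and S100A16 followed, whereas the inflammatory S100A7, S100A8 and S100A12 had no read. TMSB4X and TMSB10 were near one another at 18853 ± 1275 and 17237 ± 180 per kb, and TMSB15A had no read. LGALS1 stood at 4024 ± 280 per kb against 795 ± 18.6 for LGALS3, and 10 of 12 annexins were present, led by ANXA5 at 2111 ± 24.7 per kb.

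The promoter letters of these genes were set beside their abundance. For 11303 protein-coding genes with 1 RefSeq start, the 250 bases before the start held a median of 25 CG pairs in the 1031 genes whose mean reached 1000, 22 in the 6955 present genes, 10 in 1742 trace genes and 4 in 2606 genes with no read, against 18 over all. The motif TATAAA, searched on the strand of the gene in the last 50 of these bases, occurred in 3.78% of the promoters of genes that reached 1000, 1.93% of those present and 11.7% of those with no read, against 4.80% of all. These shares are a description across genes, which are not independent replicates. The RefSeq start lay within 500 bases of the outermost GENCODE start in 83.7% of these genes, and the CG medians of the classes were the same in that subset, 25, 22, 10 and 4. S100A6 and S100A12, from the same gene cluster, and unread CDKN2B are shown. S100A6 lies near the median of its class, S100A12 at the lower quartile of unread genes (1) and CDKN2B above their upper quartile (12). The stretches come from RefSeq on GRCh38.p14, 5′ to 3′ on the strand of the gene, with CG in capitals.
S100A6: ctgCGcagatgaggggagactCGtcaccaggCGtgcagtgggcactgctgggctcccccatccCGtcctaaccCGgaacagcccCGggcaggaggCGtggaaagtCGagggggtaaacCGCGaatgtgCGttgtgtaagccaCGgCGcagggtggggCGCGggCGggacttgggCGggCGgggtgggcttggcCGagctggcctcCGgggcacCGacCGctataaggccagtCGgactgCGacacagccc
S100A12: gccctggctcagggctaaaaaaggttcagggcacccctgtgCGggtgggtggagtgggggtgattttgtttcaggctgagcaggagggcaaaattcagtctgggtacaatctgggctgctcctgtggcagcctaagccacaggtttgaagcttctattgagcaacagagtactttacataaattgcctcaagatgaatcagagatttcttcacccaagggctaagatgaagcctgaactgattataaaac
CDKN2B: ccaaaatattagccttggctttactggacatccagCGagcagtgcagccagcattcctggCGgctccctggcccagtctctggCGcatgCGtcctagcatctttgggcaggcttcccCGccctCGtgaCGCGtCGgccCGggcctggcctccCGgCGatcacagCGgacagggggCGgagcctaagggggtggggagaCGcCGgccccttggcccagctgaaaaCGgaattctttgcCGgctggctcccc

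The S100A6 stretch (chr1:153535992-153536241, minus strand) held 24 CG pairs and the S100A12 stretch (chr1:153375622-153375871, minus strand) only 1, together with TATAAA near its end. The S100A6 start used lies 253 bases inside the outermost GENCODE start, so the stretch is within the gene model, whereas the starts of S100A12 and CDKN2B coincide. CDKN2B (chr9:22009306-22009555, minus strand) held 18 CG pairs, and the gene had no read in any plate.

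Few cadherins were present, 5 of 23. CDH11, a cadherin of mesenchymal cells, had 2409, 2381 and 2442 normalised reads and was the only abundant member. CDH24 followed with 187 ± 7.53, while epithelial CDH1 (E-cadherin) had 10.9, 8.13 and 7.03 and neural CDH2 (N-cadherin) 5.44, 0 and 2.01. Another 10 of 23 cadherins had no read. The plates agreed on this order, since the lowest CDH11 value lay far above the highest of CDH24.

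Catenins, which link cadherins to actin, were nevertheless abundant. CTNNA1 (alpha-catenin) had 6709, 6736 and 6784 normalised reads, CTNNB1 (beta-catenin) 5754, 5707 and 5895, and JUP (plakoglobin) 1747 ± 57.6. CTNND1 (p120-catenin) had only 91.5, 114 and 97.4, and 39.1% of its exon bases are shared with another gene on the same strand. The neuronal and cardiac forms CTNNA2, CTNNA3 and CTNND2 had no read.

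Desmosomal and tight-junction genes were present in part. DSP (desmoplakin) had 2657 ± 106 normalised reads and DSG2 1069 ± 34.1, whereas the epidermal DSG1, DSG3, DSG4 and DSC3 had no read. CLDN4 had 1457, 1343 and 1429 and CLDN2 741, 750 and 769, and per kb CLDN4 was 1.36 times CLDN2 (range 1.30 to 1.43). OCLN (occludin), with 5.44, 0 and 4.02, and TJP1, with a mean of 47.0, have 96.4% and 99.1% of their sampled sequence on alternate contigs. The hyaluronan receptor CD44 had 6145, 6157 and 6152, and the tetraspanin CD63 6866 ± 160, against 226 ± 13.8 for epithelial EPCAM.

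Integrins, which pair an alpha and a beta chain into a matrix receptor, were led by a chain of laminin receptors. ITGA3, whose protein pairs with beta-1 to bind laminins, had 14149, 13155 and 13717 normalised reads, and per kb stood 2.41 times above ITGA6 (range 2.28 to 2.52, and 3.75 by longest transcript). ITGA2 (collagen), ITGA5 (fibronectin) and ITGAV (vitronectin and others) had 2885 ± 151, 2413 ± 59.0 and 2086 ± 114. The leukocyte chains ITGAL, ITGAM, ITGAX and ITGAD had at most 6 reads each over the plates, and ITGA8 had none.

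Of the beta chains, ITGB1, the partner of most alpha chains, had 10073, 10213 and 10179 normalised reads, ITGB4, the partner of ITGA6 in hemidesmosomes, 5202, 4669 and 4711, and ITGB5 2879 ± 171. Per kb of union exon ITGB4 and ITGB1 were level, at 719 ± 43.9 and 697 ± 5.01, but by longest transcript ITGB4 was 0.456 times ITGB1, so their order depends on the gene model. Epithelial ITGB6 was seen in a trace of 0, 0.903 and 2.01.

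Laminins are trimers of an alpha, a beta and a gamma chain, and chains of several trimers were found. LAMB2 had 7176, 6474 and 6801 normalised reads and LAMA5 7190, 6731 and 6886, beside LAMC1 with 3690, 3680 and 3716. LAMB3 and LAMA3, chains of an epithelial basement membrane laminin, had 4194 ± 114 and 1583 ± 51.5. LAMA4 had 17.4, 23.5 and 39.2, LAMA1 and LAMA2 a trace, and LAMB4 and LAMC3 no read.

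Collagens were led by types VI, XVIII and V rather than by the fibrillar type I. COL18A1, a basement membrane collagen, had 10058, 9194 and 10016 normalised reads, COL6A1 7350, 6563 and 6994, and COL5A1 4507, 4383 and 4578. COL6A1 was 2.11 times COL6A2 per kb (range 2.06 to 2.18) but 54.4 times COL6A3 (range 50.1 to 60.1, and 35.1 by longest transcript), the third chain of classical collagen VI. Fibrillar COL1A1 had 138, 139 and 140, COL1A2 402 ± 34.8, and COL3A1 1.09, 0 and 2.01. Of 44 collagen genes, 23 were present, 12 had a trace and 9 had no read.

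Other matrix and protease genes showed a like narrow choice. AGRN (agrin) had 12115 ± 504 normalised reads and THBS1 (thrombospondin) 4786 ± 76.0, while BGN, DCN and POSTN had no read. MMP14, a membrane-bound metalloprotease that can activate the gelatinase MMP2, had 7369, 6769 and 7049, but MMP2 itself had 7.62, 2.71 and 5.02 and the gelatinase MMP9 3.27, 4.52 and 7.03. The inhibitors TIMP3 with 11566 ± 328, TIMP1 with 7725 ± 377 and TIMP2 with 6610 ± 161 were all abundant. TIMP1 was 2.12 times TIMP3 per kb (range 2.01 to 2.19, and 2.80 by longest transcript), although TIMP3 had more reads.

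Enzymes that build mucin-type O-glycans were present in part. GALNT enzymes attach the first sugar, N-acetylgalactosamine, to serine or threonine, and 13 of 20 were present, a share like that over all lists. GALNT2 had 3195, 2990 and 2957 normalised reads and GALNT10 2288, 2412 and 2437. Per kb GALNT2 was 2.03 times GALNT1 (range 1.90 to 2.21, and 2.74 by longest transcript). GALNT8, GALNT17 and GALNTL5 had no read. C1GALT1, which extends that sugar, and its chaperone C1GALT1C1 had means of 818 and 341. They belong to a list of core and extension genes of which 7 of 14 were present and 7 had a trace. All 7 galactosyltransferases of the B4GALT family were present, from B4GALT1 at 2949 ± 106 to B4GALT4 at 77.7 on average.

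MUC1, a transmembrane mucin, had 1593, 1670 and 1746 normalised reads and was the only mucin above 100. MUC5B had a mean of 32.5, MUC5AC had 15.2, 10.8 and 7.03, 4 members had a trace and 9 had no read. Of those 9, MUC2, MUC4, MUC6, MUC20 and MUC21 have from 78.2% to 100% of their sampled sequence on alternate contigs, so for these no read is no evidence of absence.

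**Figure D3:**
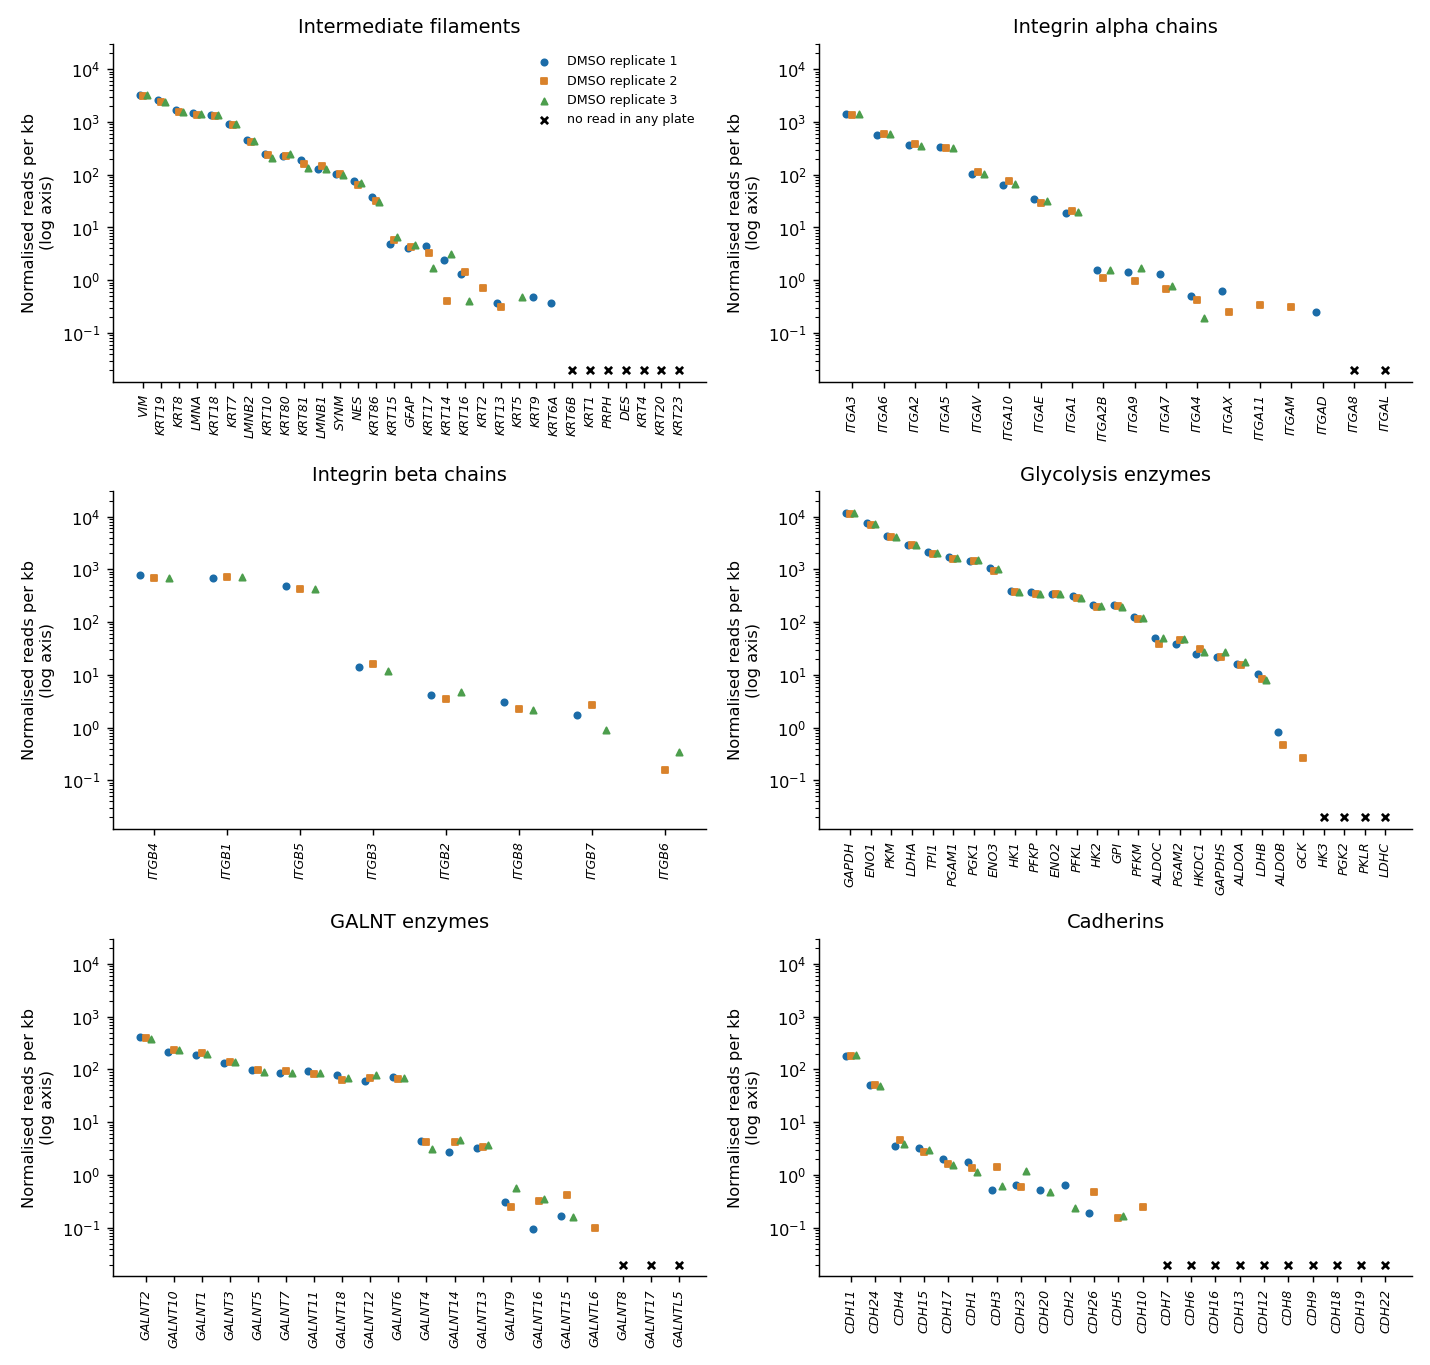
Normalised reads per kb of exon (log axis) of every member of 6 families, in falling order; the 3 markers are the DMSO plates and crosses mark members with no read in any plate. Levels span orders of magnitude within each panel, CDH11 stands apart among cadherins, and the plates coincide for the abundant members and scatter for the trace members.

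Glycolytic enzymes differed widely between isoforms. Per kb, GAPDH was at 11390 ± 356, ENO1 at 7316 ± 262, PKM at 4148 ± 113 and LDHA (the lactate dehydrogenase chain that favours lactate) at 2867 ± 27.4. ENO1 was 21.5 times neuronal ENO2 (range 21.1 to 22.1) and 7.29 times muscle ENO3 (range 7.02 to 7.51). By longest transcript these ratios were 29.0 and 5.29. The hexokinase HK1 was 1.84 times HK2 (range 1.78 to 1.94, and 3.00 by longest transcript). PKLR, the liver and red cell pyruvate kinase, had no read, but has a full second copy, and the testis enzymes LDHC and PGK2 had no read either.

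LDHB had only 30.5, 25.3 and 24.1 normalised reads, and LDHA was 321 times LDHB per kb (range 279 to 353). ALDOA, an aldolase of most dividing cells, was also low with 62.1, 57.8 and 67.3. For these genes 33.4% and 42.8% of exon bases are shared with another gene on the same strand, and the part of this sharing in their values was not tested.

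Hypoxia-related genes were present throughout the list, 23 of 23. HIF1A had 5726, 5820 and 5812 normalised reads and EPAS1 1822, 1798 and 1787, a ratio of 4.54 per kb (range 4.45 to 4.60). NDRG1 had 5025 ± 153 and VEGFA, the vascular growth factor, 2989 ± 69.0. CA9, a surface carbonic anhydrase much used as a hypoxia marker, had only 74.1, 65.0 and 78.3. No culture at another oxygen level or in 2D was used here, so whether these levels are raised was not tested.

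Glucose and lactate carriers were equally selective. SLC2A1 had 5159, 4777 and 4907 normalised reads, against 609 ± 23.4 for SLC2A3. Of the lactate carriers, SLC16A3, an exporter of glycolytic cells, had 7782, 6934 and 7193, and SLC16A1 10.9, 11.7 and 9.04, a ratio of 475 per kb (range 406 to 547).

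All 13 mitochondrially encoded messenger RNAs were present, over a wide range of levels per kb from MT-CO1 at 54451 to MT-ATP8 at 2378 ± 499. Of nuclear isoform pairs of the respiratory chain, COX4I1 was present at a mean of 1688 while the lung and muscle forms COX4I2 and COX6A2 had no read. SLC25A5, an ADP/ATP carrier of proliferating cells, was 36.6 times SLC25A6 per kb (range 31.9 to 40.6). SLC25A6 lies in the pseudoautosomal region, so its sequence occurs on both X and Y in the reference. The part of this in its low value was not tested.

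The V-ATPase, a proton pump of lysosomes and Golgi, was present in 21 of 25 subunit genes. Of its a-subunits, which set the membrane on which the pump sits, TCIRG1 had 2655, 2507 and 2668 normalised reads, ATP6V0A1 476, 495 and 490, ATP6V0A2 282, 249 and 286, and ATP6V0A4 46.8, 42.5 and 44.2. The ranges of these members did not overlap, and TCIRG1 was 15.1 times ATP6V0A1 per kb (range 14.3 to 15.7). ATP6V0C, which encodes the ring of the pump, had a mean of only 1.40 normalised reads, with 76.3% of its exon bases shared with another gene on the same strand.

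Growth factor receptors were headed by AXL, a receptor kinase common in mesenchymal breast lines. AXL had 3193, 3150 and 3137 normalised reads, EGFR 2171, 2168 and 2022, MET 1754, 1937 and 1640 and FGFR1 1772, 1745 and 1660. Per kb AXL was 4.63 times EGFR (range 4.51 to 4.82, and 3.13 by longest transcript). ERBB2, which encodes HER2, had 1200, 1202 and 1197, while ERBB4 had a trace and FLT1, FLT3, FLT4, RET and ROS1 had no read. DDR1, a collagen receptor, had a single read, with 100% of its sampled sequence on alternate contigs.

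Among ligands, CSF1, a macrophage growth factor, led with 12509, 12234 and 12822 normalised reads, and its receptor CSF1R had 95.4 ± 5.26. The EGFR ligands AREG, TGFA and HBEGF were present with means of 603, 957 and 321, and HGF, the ligand of MET, had no read. Of 27 cytokines and chemokines, 16 were present, with TNFSF10 at 1231 ± 14.7, CXCL8 at 78.8 ± 8.22 and IL6 at 79.1 ± 2.82, far under CSF1.

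Of 9 steroid-type receptors, 4 were present. The orphan receptor ESRRA had 1236, 1173 and 1235 normalised reads, and NR3C1, the glucocorticoid receptor, had 1100, 1237 and 1180. These overlapped in reads but not per kb, where ESRRA was at 392 ± 11.6 and NR3C1 at 128 ± 7.54. The mineralocorticoid receptor NR3C2 had 77.0 ± 6.04, and ESR2 a mean of 33.1. ESR1 and PGR had no read in any plate.

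All 23 genes of the RAS to MAP kinase list were present. DUSP4 and DUSP6, phosphatases that ERK signalling induces and that act back on it, had 6372 ± 140 and 2800 ± 68.4 normalised reads. NRAS had 939, 938 and 907. HRAS had a mean of only 14.9, with a full second copy on alternate contigs.

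Cell cycle genes were present in 20 of 22 cases. The cyclin D genes differed, with CCND1 at 4482, 4406 and 4237 normalised reads, CCND3 at 2071 ± 70.6 and CCND2 at 5.44, 3.61 and 9.04. TOP2A, the topoisomerase of dividing cells, was 6.55 times TOP2B per kb (range 6.40 to 6.72, and 3.09 by longest transcript), and the proliferation marker MKI67 had 1886 ± 73.7. CDKN1A, which encodes p21, had 2514, 2429 and 2432, against a trace for CDKN2A and no read for CDKN2B.

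CDKN2A and CDKN2B lie in a run of protein-coding genes on the short arm of chromosome 9 with almost no reads. Between FOCAD and TUSC1, from HACD4 to IZUMO3 (chr9:20999509-24545946 on hg38, 3546 kb), 24 protein-coding genes held 5 reads in the 3 plates together, 21 with no read, 3 with a trace and none present. Of the 24, 16 are interferon genes, which most unstimulated cells do not transcribe. The remaining 8 include MTAP, a salvage enzyme used by most cells, with 1.09, 0.903 and 0, and the ubiquitin ligase adaptor KLHL9, with no read. None of these genes has a second copy of 50% or more.

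The nearest genes on either side of the run were read in every plate. MLLT3 had 122, 135 and 135 normalised reads and FOCAD 29.4, 24.4 and 23.1 before it, and TUSC1 had 123, 103 and 127, CAAP1 231, 220 and 203 and PLAA 506, 531 and 421 after it. Farther out on that side, LRRC19 and TEK had a trace, with no read in 1 plate each. The plates agreed on where reads stopped after FOCAD and resumed at TUSC1. DNA was not measured, so the state of the locus was not tested.

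**Figure D4:**
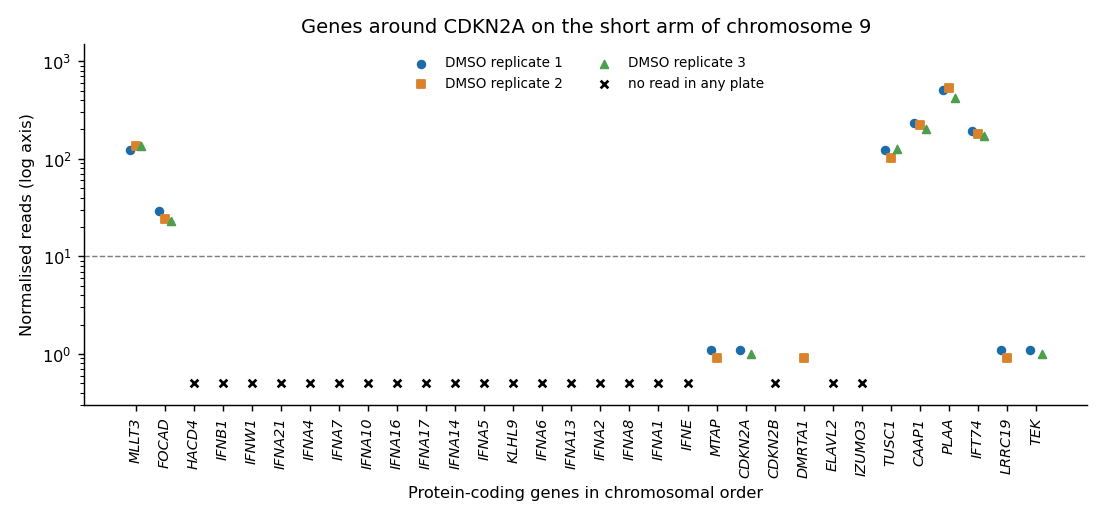
Normalised reads (log axis) of the 32 protein-coding genes from MLLT3 to TEK in chromosomal order; markers are the 3 DMSO plates, crosses mark genes with no read and the dashed line is the limit of 10 for presence. FOCAD and TUSC1 border a run of 24 genes in which none is present.

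Of the transcription factors of epithelial to mesenchymal transition, ZEB1 had 648, 639 and 681 normalised reads, SNAI2 180, 213 and 214 and SNAI1 125, 142 and 125. TWIST1 had a trace and TWIST2 no read, and the epithelial regulators GRHL2, OVOL1, OVOL2 and ESRP1 had only a trace. TGFB1, the ligand best known to drive this transition, had 2830 ± 87.0 and was 12.02 times TGFB2 per kb (range 11.8 to 12.6).

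In the Hippo pathway, YAP1 had 1881, 1952 and 1873 normalised reads, and 13 of 14 genes were present. The exception was AMOT, an angiomotin, with a single read, while its paralogs AMOTL1 and AMOTL2 had means of 1003 and 571. YAP1 was 1.84 times its paralog WWTR1 per kb (range 1.79 to 1.91, and 1.30 by longest transcript).

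Survival and stress genes also used particular members. BCL2L1, which encodes BCL-XL, had 3644, 3367 and 3444 normalised reads and MCL1 2800, 2861 and 2694, against 42.5, 32.5 and 45.2 for BCL2. HSP90AB1 had 15915 ± 280 normalised reads and HSPA8 14705 ± 201. Per kb HSP90AB1 was 3.05 times HSP90AA1 (range 2.99 to 3.14, and 2.34 by longest transcript). The stress-induced HSPA1A and HSPA1B had no read, with nearly all of their sampled sequence on alternate contigs. Of metallothioneins, which bind metals, MT2A had 1737, 1601 and 1464, while MT1B, MT1H, MT1M, MT3 and MT4 had no read.

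Drug exporters and noncoding RNAs were similarly uneven. ABCC3 had 2978 ± 86.2 normalised reads and ABCG2 a mean of 209, whereas ABCB1, which encodes P-glycoprotein, had no read. NORAD had 5338 ± 103, and NEAT1 4317, 4775 and 5323. MALAT1, with 7083, 8752 and 8802, is overlapped on the opposite strand over 83.7% of its length. HOTAIR, HOTAIRM1 and MEG3 had no read.

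Sets of genes that every dividing cell needs, added after values were seen, show how far a low value can be trusted. All 31 proteasome genes, 8 chaperonin genes and 12 RNA polymerase II genes were present, and 77 of 80 ribosomal protein genes were. The exceptions included RPS18 with a mean of 1.70 and a full second copy, and RPS10 with 8.71, 4.52 and 5.02. RPL17 at 11.3 and RPS10 at 2.62 normalised reads per kb are far below 1107, the median of the present ribosomal genes, and share 32.9% and 31.5% of their exon bases with another gene on the same strand. Thus 3 of 131 needed genes read as not present, a count that leaves out genes above the limit but far below their set. Among such genes, RPS9 had 5.6 and RPL36A 6.29 normalised reads per kb. PSMA2 had 2.98 and PSMA6 7.59 per kb, against 229, the median of the present proteasome genes. RPS9 has 97.6% of its sampled sequence on alternate contigs. The count is therefore not the share of needed genes with a value that is too low.

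The plates were close to one another. Across 15250 present genes, Pearson's r of log2(normalised reads + 1) lay between 0.989 and 0.991 over the 3 pairs, a description across genes that share libraries. The median coefficient of variation (CV) over the plates was 6.84%, and 99.5% of the 1946 genes that averaged 1000 or more differed by less than 1.2 times between the highest and lowest plate. The biological CV, the part of the spread beyond counting fitted by edgeR over all present genes, was 3.97%.

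Counting error set the spread of low genes but not of abundant ones. In genes between 10 and 100 normalised reads the median CV was 15.3%, against 14.04% from counting alone, and between 100 and 1000 it was 5.61% against 4.66%. Between 1000 and 10000 it was 3.08% against 2.03%, and above 10000 it was 3.24% against 0.672%.

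A chi-square test of whole reads against the size factors, with Benjamini-Hochberg adjustment over all present genes, called 459 of 15250 genes (3.01%) as different between plates beyond counting error. The call grew with depth, to 51 of the 65 genes above 10000. Over the called genes, the highest plate was a median of 1.19 times the lowest. Of the 581 present family members, 64 were called, or 11.02% against 3.01% of all present genes, and their median level was 505 normalised reads against 211 for all present genes. Replicate 1 lay farthest from the other plates in 216 called genes, replicate 2 in 158 and replicate 3 in 85. The count was 159 without replicate 1, 202 without replicate 2 and 374 without replicate 3.

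Mitochondrially encoded transcripts moved together, with 17 of 22 present called and 16 of these lowest in replicate 1. Their median level was 8612 normalised reads, and of all genes 9.36% were called between 1000 and 10000 and 78.5% above 10000, against 3.01% over all levels. MT-CO1 had 80076 in replicate 1 against 84385 and 87428 in the others, and MT-ATP8 374 against 560 and 543. The share of mitochondrial messenger RNA was 2.67% in replicate 1, against 2.90% and 2.92%. Among 77 present ribosomal protein genes, with a median level of 3669, 23 or 29.9% were called, 17 of them highest in replicate 1 and 18 lowest in replicate 2.

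Differences of at least 1.5 times concerned 118 called genes, of which 60 have a second copy on an alternate contig and 13 have no position in the annotation used. Genes with a second copy made up 14.4% of the called but 1.29% of the present genes. Present genes with a second copy were called in 33.7% of cases, against 2.61% for the others. Among the called genes alone, the highest plate was a median of 4.84 times the lowest with a second copy, against 1.16 times without.

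Of the 15 called genes with the largest gene-wise biological CV and a mean of at least 100, 8 have a second copy. LY6E, a surface protein, had 73.0, 1446 and 79.4 normalised reads, CUTA 760, 58.7 and 668, RNH1 (the ribonuclease inhibitor) 665, 96.6 and 789, and PSMB3, a proteasome subunit, 299, 9.94 and 18.1. In each of these genes 1 plate stood apart from the others, and 100% of the sampled exon sequence occurs a second time. Without such a copy on an alternate contig, GTPBP6 had 34.8, 187 and 140. GTPBP6 is of the pseudoautosomal region and so present at 2 places in the reference. GATD3A had 199, 90.3 and 109, EIF3C, which has a close paralog, 91.5, 111 and 188, and MRPL23 234, 116 and 170. Copies elsewhere in the reference were not searched for. Whether read placement produced these gaps was not tested.

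**Figure D5:**
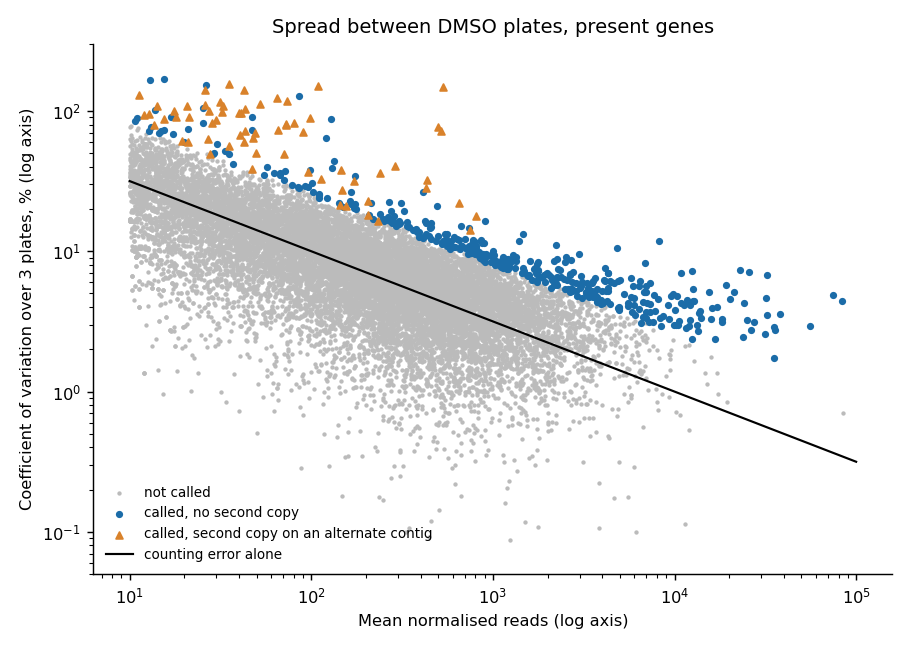
Coefficient of variation over the 3 DMSO plates (percent, log axis) against mean normalised reads (log axis) of 15250 present genes; blue points and orange triangles are the 459 called genes without and with a second copy, and the line is counting error alone. Most genes lie about the line up to 1000 reads, and the triangles stand highest above it.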

How the data were processed

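RNA of 3 DMSO plates was sequenced as paired-end reads after poly(A) selection. According to the study's methods and the submitters' processing notes, HISAT2 placed the reads on hg38, HTSeq assigned them to genes and DESeq2 scaled the libraries. The strand setting, the GENCODE release and tool versions are not given in the sources used here.

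The authors deposited signal values for 59608 gene symbols, which are read counts divided by a size factor per library, and all 15 columns matched a label. In each DMSO column 100.0% of the values were whole multiples of 1 step within 0.001, and whole reads were recovered by that step (size factors 0.918, 1.11 and 0.996). The authors' tables of log2 fold changes, Wald scores and p-values against DMSO were not used.

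A gene counted as present when its normalised reads averaged 10 or more, and the limit of a gene with no read was 3 reads over the plates. GENCODE release 44, also on hg38, gave positions and exon lengths, and 38133 symbols matched by current and 450 by older name. A second copy meant that at least 50% of 31 bp words, taken every 25 bp along the exons, occurred on 261 alternate contigs. Copies on the main chromosomes were not searched for, so a gene without a second copy may have one there. Differences between plates were tested per present gene by a chi-square test (Benjamini-Hochberg adjusted p below 0.05). The biological CV came from edgeR 4.0.16, with DESeq2 1.42.0 as an alternative, in R 4.3.3, and the rest from Python 3.11.15 with scipy 1.17.1. P-values measure only the spread between these 3 plates.

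Named were the 20 genes with most reads, the 20 highest per kb, in each family up to 6 leading members with unread members and paralog pairs, and the 15 called genes of largest biological CV with a mean of at least 100. Among the leading genes not every one is described, and some items are not reported here. GATD3A and other single genes named for contrast were chosen after their values were seen. Members and lists were written with earlier results of these data known. Alternatives were other limits for presence, TMM and total scaling, exon length by longest transcript, pooled reads, mitochondrial genes left out, an adjusted p of 0.01 and leaving out each plate.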

Additional observations from a re-analysis of the deposited data

How the results depend on the processing

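The count of 15250 present genes stayed within 1.5 times under other presence limits, TMM and total scaling and with each plate left out. The count of 33569 genes with no read did so with each plate left out, and that of 581 present family members under other presence limits. Leaving out genes with a second copy, chosen after seeing the data, gave 15054, 32008 and 576, and 371 genes called between plates. Without mitochondrially encoded genes the 100 most abundant genes held 16.7% in place of 18.8%. The median CV was 5.47% at a mean of at least 50 and 3.54% at 500, where counting error is smaller, and 5.20% to 5.80% with 1 plate left out. At an adjusted p below 0.01 the genes called between plates numbered 267, and with 1 plate left out 159 to 374. The biological CV was 3.35% to 4.80% with 1 plate left out, and the median DESeq2 dispersion over present genes gave 9.42%. That median is taken over gene-wise values, whereas edgeR fitted a single value to all present genes, so these are unlike summaries. The cause of the gap was not tested. No paired analysis was possible because the results come from 1 group and no contrast was tested. Depth limits the trace class, where a read more or less decides the value, and a gene expressed below 0.112 CPM could go without a read.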

Other observations

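Histone genes were also read in these poly(A) libraries. The replacement histones H3-3B and H2AZ1, whose transcripts carry a poly(A) tail, had means of 3132 and 2038 normalised reads. The replication-dependent H1-1, H1-3 and H1-5, whose transcripts normally end without one, had no read, while H1-2 had 304 and H2AC6 342. Of 16 histone genes listed, 12 were present.

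Some abundant symbols had no position in the annotation used. The 21025 such symbols, 1855 of them present, took 3.26% of the normalised reads, and AC068580.3 was among the 25 with most reads. Their exon lengths, overlaps and copies were not analysed here.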
